A study of Mus musculus with 4 samples.

Results

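The genes described here build, cut and crosslink the extracellular matrix of the embryonic mouse skull vault. They were chosen by symbol alone, as the protein-coding genes named Mmp, Adamts, Adamtsl, Timp, Lox or Loxl, which gave 55 of the 55487 gene IDs in the count table. They comprise 22 matrix metalloproteinases (MMP), 19 ADAMTS proteases, 5 ADAMTS-like proteins (ADAMTSL), 4 tissue inhibitors of metalloproteinases (TIMP) and 5 lysyl oxidases (LOX). Poly(A) RNA of E14.5 mouse embryos was sequenced, with 2 libraries of frontal bone and 2 in which parietal and interparietal bone form a single sample. The series belongs to a study of vesicles that carry citrate and promote mineralization, and the labels name no strain, genetic change or treatment in either group and no number of embryos per library. Nothing says whether 1 group's libraries are from different embryos, so the p-values below reflect the scatter of these 4 samples alone, and that scatter may be technical.

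Matrix metalloproteinases and ADAMTS proteases are zinc enzymes that are made as inactive precursors and cut collagens, proteoglycans and microfibril proteins. ADAMTS-like proteins share the non-catalytic modules of ADAMTS proteases but have no protease domain, and TIMPs block the active site of these enzymes. Lysyl oxidases are copper enzymes that oxidize lysines of collagen and elastin, the first step of covalent crosslinking. In forming bone these proteins take part in the deposition and remodelling of the collagen matrix that later mineralizes.

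Total counts ran from 24069177 to 35555013 per library. Levels are given as CPM, the count scaled to library depth with factors from TMM (trimmed mean of M-values). Osteoblast genes were detected, with 10 of 10 markers past the filter on low counts, but so were genes of brain, ganglia, muscle, meninges, cartilage, skin and blood. Forebrain markers summed to 359 and 380 CPM in the frontal libraries and to 54.3 and 51.3 CPM in the parietal-interparietal libraries, and 9 of 10 were called higher in frontal. Meningeal markers summed to 525 and 557 CPM against 902 and 894 CPM, with 7 of 12 called lower, and skeletal muscle markers to 1233 and 1182 CPM against 1725 and 1738 CPM, with 10 of 12 called lower. These are bulk libraries, so fewer cells of a type and less RNA per cell cannot be told apart.

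Of the 55 members 46 passed the filter, and 8 of these were called lower in the frontal libraries and 0 higher (edgeR adjusted p under 0.05). The lower members were Mmp15, Adamts5, Adamts9, Adamts16, Adamtsl4, Timp3, Lox and Loxl2. They were 1 of 14 tested MMPs (7.14%) and 3 of 18 ADAMTS genes (16.7%). In the small families they were 1 of 5 ADAMTSL, 1 of 4 TIMP and 2 of 5 LOX genes. The 8 made up 17.4% of the tested members, while 6.44% of all 20947 tested genes were called lower, 6.25% higher and 12.7% in either direction. The MMP share was thus close to that of all genes. When the mean had to reach 5 CPM, 8 of 38 members (21.1%) were lower and 0 higher, while 9.85% of the genes at this level were lower and 8.84% higher. At an unadjusted p under 0.05, edgeR had 12 of the 46 tested members lower and 2 higher. Of all 20947 tested genes, 2796 were lower and 2872 higher at this threshold. At an adjusted p under 0.05, DESeq2 called the same count of members, 8 lower and 0 higher. Both frontal libraries lay below both parietal-interparietal libraries for 18 tested members (39.1%, against 28.4% of all tested genes) and above them for 6 (13.0%, against 28.9%). The median log2 fold change, frontal minus parietal-interparietal, was −0.13 over the tested members and 0.01 over all tested genes.

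All 8 calls were lost when the parietal-interparietal libraries were summed as 1 sample, a fit in which 3.38% of all tested genes were called in either direction. Without parietal-interparietal library 1, and also without library 2, Adamts16 was the 1 member still called, with 3.89% and 3.84% of all tested genes called. Without frontal library 1, 16 members were called lower and 1 higher, with 24.2% of all tested genes called and 12.2% called lower. Without frontal library 2, 12 members were called lower and 3 higher, with 32.6% of all tested genes called and 17.0% called lower. The members' counts thus moved in the same direction as the counts over all genes. Beside the 8, the lower calls were Mmp14, Adamts2, Adamts12, Adamts14, Adamts17, Adamtsl1, Adamtsl5 and Timp1 without frontal library 1, and Mmp25, Adamts4, Adamts12 and Adamtsl1 without frontal library 2. In each such fit the residual spread comes from the pair left whole. The sign of each of the 8 differences stayed the same in all 12 alternatives run. In all 8, both frontal libraries lay below both parietal-interparietal libraries. The alternatives reuse these libraries, so the sign could hardly change and is no separate support.

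**Figure D1:**
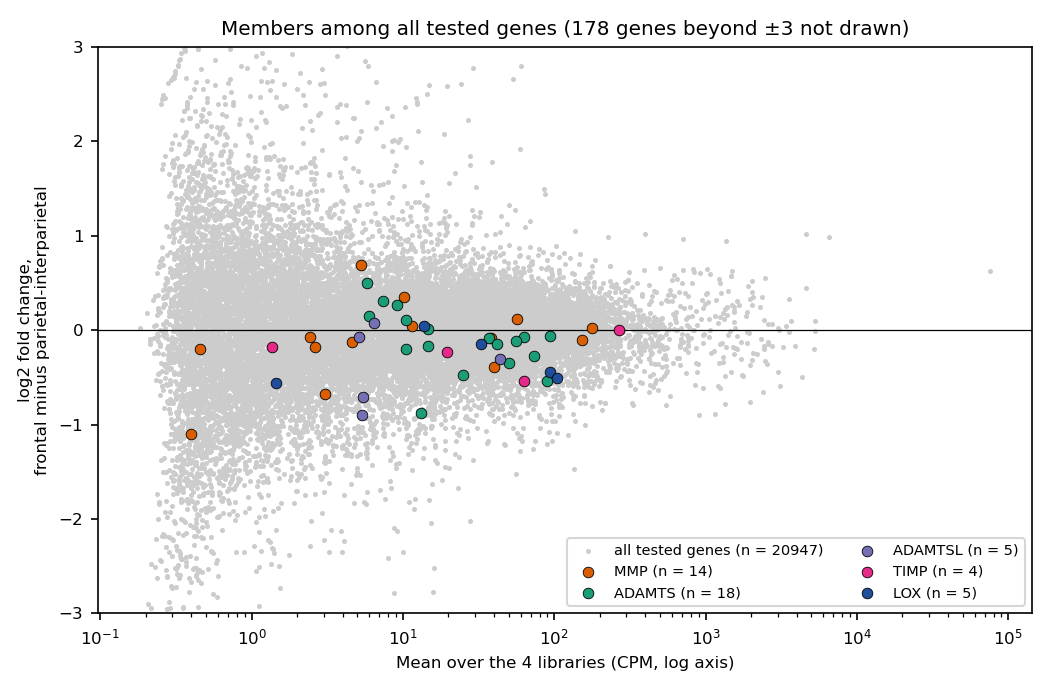
Each grey point is a tested gene, placed by its mean over the 4 libraries (CPM, log axis) and its log2 fold change, frontal minus parietal-interparietal. Coloured points are the 46 tested members by family, which lie between −1.10 and 0.69 with a median of −0.13; 178 genes with changes beyond 3 in either direction are not drawn.

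The module was led by a small set of abundant genes. Per kilobase of exon, Timp2 was the highest member at a mean of 68.3 CPM per kb, followed by Mmp2 at 52.5, Mmp14 at 25.7, Timp1 at 22.2, Mmp11 at 20.4, Lox at 19.7 and Loxl2 at 19.4. Lox and Loxl2 overlapped in their libraries, at 14.4 to 23.0 and 15.9 to 23.4 CPM per kb, as did Mmp11 (19.5 to 21.5) with both. Timp1 (17.8 to 24.1) overlapped with these genes as well, so the order from Timp1 to Loxl2 is within the spread. Mmp14 (21.8 to 27.7) lay above Timp1 in each library, though their ranges overlapped. MMP14 activates MMP2 at the cell surface in a complex that holds TIMP2, and these 3 genes were the 3 highest of the module by this measure. Exon length here is the union of all annotated exons, which understates the level of genes with many isoforms.

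**Figure D2:**
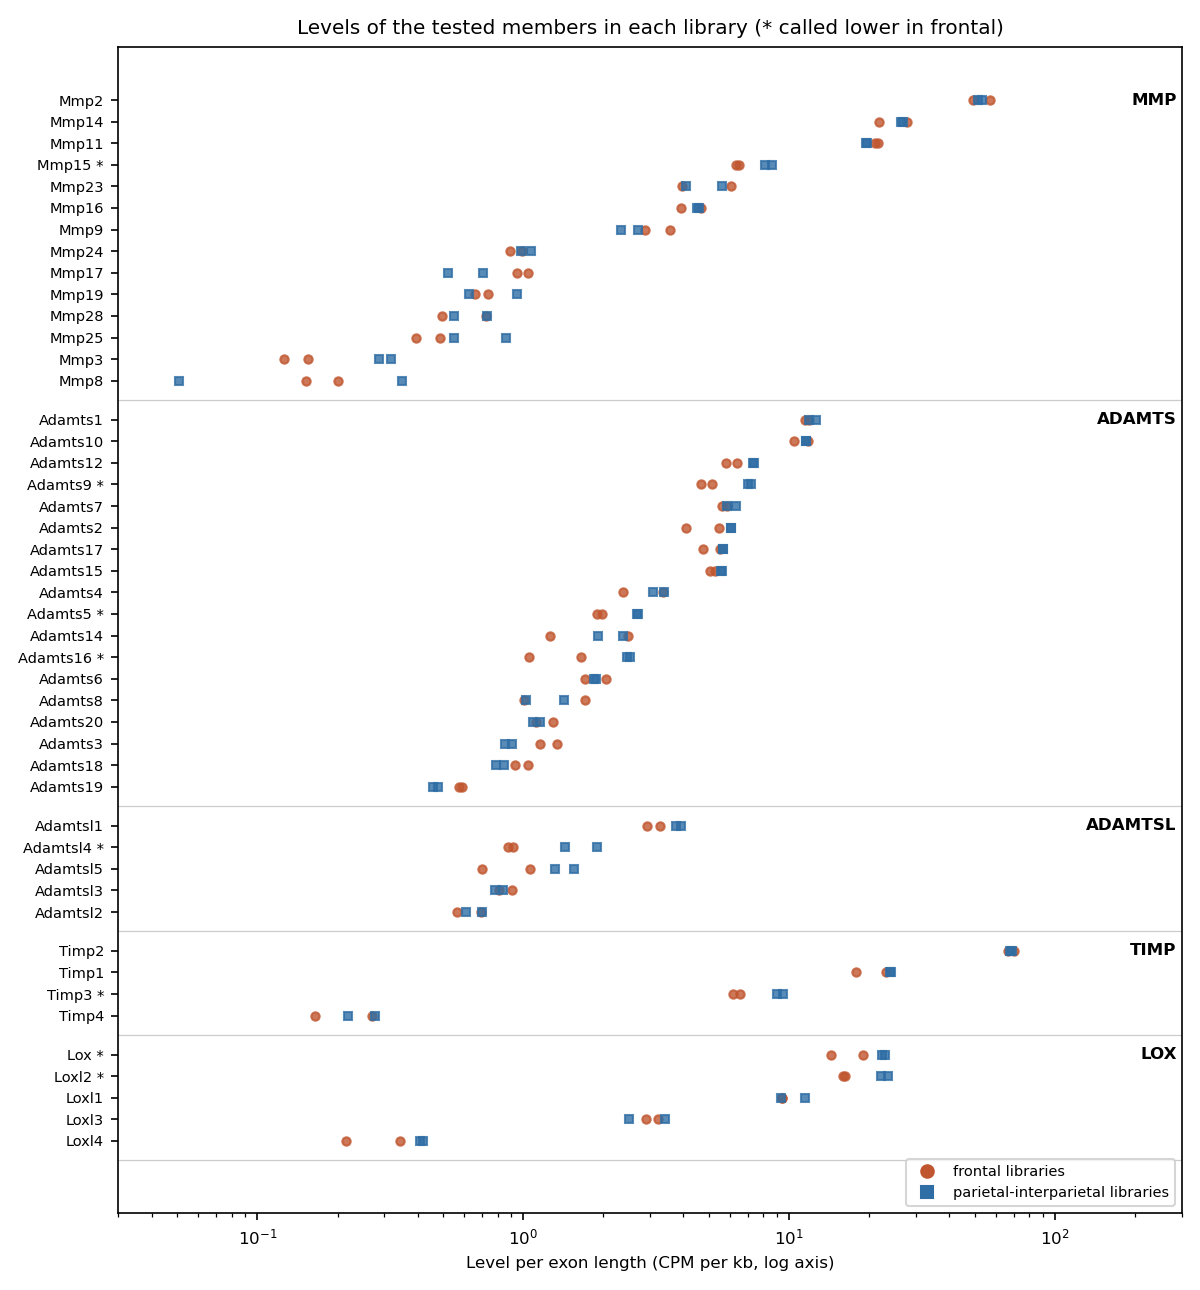
Level per exon length (CPM per kb, log axis) of each tested member in the 2 frontal (circles) and 2 parietal-interparietal (squares) libraries, grouped by family and ordered by mean level. Timp2 and Mmp2 stand highest with overlapping groups, and the 8 members marked with an asterisk have both circles left of both squares.

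Among the MMPs, 14 of 22 were tested, with 1 called lower and 0 higher. Mmp2, the gelatinase that cuts denatured collagen and basement membrane, was at 191 and 166 CPM in frontal libraries 1 and 2 and at 173 and 179 CPM in parietal-interparietal libraries 1 and 2. The groups overlapped, and the 95% interval of the log2 difference ran from −0.17 to 0.22 (edgeR adjusted p = 0.901). Mmp14, the membrane-anchored collagenase MT1-MMP, was at 165 and 130 CPM against 156 and 160 CPM, with frontal library 2 lowest and frontal library 1 highest. Its interval ran from −0.34 to 0.14 (adjusted p = 0.614). Leaving out a frontal library gave a call in both genes, higher for Mmp2 without frontal library 2 and lower for Mmp14 without frontal library 1. Mmp11, stromelysin-3 of mesenchyme, was at 58.4 and 59.8 CPM against 54.1 and 54.6 CPM, which did not overlap but differed by 1.09-fold (adjusted p = 0.43).

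The called member was Mmp15, which encodes the membrane-type enzyme MT2-MMP (ENSMUSG00000031790, GRCm38 chromosome 8, 95352268 to 95375080, plus strand). It was at 35.0 and 34.1 CPM in frontal and 46.6 and 43.9 CPM in parietal-interparietal libraries, so the frontal libraries were both lower. The means were 34.6 ± 0.598 and 45.2 ± 1.89 CPM (SD, n = 2 each), a 1.31-fold difference (log2 fold change −0.39 ± 0.10 SE, edgeR adjusted p = 0.027). Of the 6 membrane-type MMPs (Mmp14, Mmp15, Mmp16, Mmp17, Mmp24 and Mmp25) the other 5 were not called. Mmp17, which is held by a lipid anchor, had the largest positive difference of the tested members, at 6.26 and 6.87 CPM against 3.44 and 4.68 CPM (log2 fold change 0.69 ± 0.24, adjusted p = 0.0884). Leaving out frontal library 1 or summing the frontal pair brought it past the test as higher. Mmp25, also lipid-anchored, was at 2.09 and 2.58 CPM against 2.91 and 4.57 CPM (adjusted p = 0.219), and Mmp24, an enzyme of neural tissue, overlapped at 4.17 to 4.99 CPM.

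Mmp9, the gelatinase of osteoclasts and macrophages, was at 12.6 and 10.1 CPM in frontal and 9.53 and 8.25 CPM in parietal-interparietal libraries. Its frontal libraries were both above the others, but the difference of 1.28-fold was not called (edgeR adjusted p = 0.236). It was called higher without frontal library 2. Of 7 other osteoclast markers 2 passed the filter, Ctsk, which was called lower, and Acp5, which was not called at 4.50 ± 0.819 against 2.63 ± 0.244 CPM. Of 9 macrophage markers 1 was called lower, C1qc, and 0 higher. Mmp16, Mmp19, Mmp23 and Mmp28 overlapped between the groups, with means from 2.36 to 39.2 CPM.

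The genes of the MMP cluster on chromosome 9 were at or near the lower limit of counting. This cluster runs from Mmp13 to Mmp7 (GRCm38 chromosome 9, 7272514 to 7699585) and holds 9 members: Mmp13, Mmp12, Mmp1b, Mmp3, Mmp10, Mmp8, Mmp27, Mmp20 and Mmp7. The highest count of any of them in a library was 23, for Mmp8 in parietal-interparietal library 2. Mmp13, the collagenase of hypertrophic cartilage and osteoblasts, had 7 and 14 counts in the frontal and 2 and 2 counts in the parietal-interparietal libraries, too few to pass the filter. Mmp3, which encodes stromelysin-1, had 8 and 8 against 14 and 14 counts and was not called (edgeR adjusted p = 0.404). Mmp20, the enamel protease, and Mmp1b had 0 counts in every library, and a count of 0 allows up to 3 counts, or 0.0852 to 0.123 CPM depending on the library, by counting error alone. Of the cluster, Mmp3 and Mmp8 were tested, and outside it Mmp21 and Adamts13, the protease of von Willebrand factor, also missed the filter, with at most 5 counts in a library.

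The start sites of these barely counted cluster genes differ in sequence from those of the other members. RefSeq start sites on GRCm38.p6 were matched for 36 of the 55 members, and the 250 bases upstream of each were searched on both strands for the AP-1 site TGANTCA, the TATA box TATAAA, the GC box GGGCGG and the TEAD site CATTCC. An AP-1 match and a TATA match were both present in 6 of the 9 cluster genes (Mmp13, Mmp1b, Mmp3, Mmp10, Mmp20 and Mmp7) and in 0 of 27 other members. Over all 32817 start sites, 1.21% had both, 6.75% an AP-1 match, 12.4% a TATA match, 32.7% a GC box match and 12.6% a TEAD match. A GC box match was found in 0 of 9 cluster genes and 21 of 27 others, and GC content ran from 37.2 to 45.6% in the cluster and from 53.6 to 80.0% in the others. Mmp11 and Adamts20 are among these 21, but their matched start sites lie 3994 and 61068 bases from the annotated 5′ end of the gene. A match is only a description of the letters in this window. The last 120 bases before the start site are shown 5′ to 3′ on the gene's strand for 3 cluster genes, with AP-1 and TATA matches in capitals, because they show how both matches lie where both are present. The cluster genes Mmp8, Mmp12 and Mmp27 held neither match, and of the members outside the cluster that missed the filter Mmp21 held a TATA match only and Adamts13 neither, so low counts went with and without these letters.
Mmp13 (chr9:7272394-7272513, plus strand): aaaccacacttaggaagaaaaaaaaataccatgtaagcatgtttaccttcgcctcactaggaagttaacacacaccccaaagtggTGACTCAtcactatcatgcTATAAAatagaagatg
Mmp3 (chr9:7445702-7445821, plus strand): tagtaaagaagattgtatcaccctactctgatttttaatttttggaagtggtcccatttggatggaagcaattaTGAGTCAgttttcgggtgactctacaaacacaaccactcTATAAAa
Mmp10 (chr9:7502222-7502341, plus strand): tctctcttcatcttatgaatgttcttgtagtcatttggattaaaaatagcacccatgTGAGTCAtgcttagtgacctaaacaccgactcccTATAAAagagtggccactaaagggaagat

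The next 3 are shown for contrast, with GC box matches on either strand in capitals: abundant Mmp14, and Adamts9 and Adamtsl4, which were called lower in the frontal libraries.
Mmp14 (chr14:54431478-54431597, plus strand): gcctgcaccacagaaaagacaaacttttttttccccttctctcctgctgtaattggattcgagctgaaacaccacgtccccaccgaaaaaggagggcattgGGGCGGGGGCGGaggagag
Adamts9 (chr6:92943535-92943654, minus strand): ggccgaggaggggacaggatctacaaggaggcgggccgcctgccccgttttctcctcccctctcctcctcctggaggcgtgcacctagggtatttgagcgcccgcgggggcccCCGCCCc
Adamtsl4 (chr3:95687918-95688037, minus strand): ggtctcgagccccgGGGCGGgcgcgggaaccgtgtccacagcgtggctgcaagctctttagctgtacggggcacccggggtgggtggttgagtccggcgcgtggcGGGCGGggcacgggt
All 4 of the lower members with a matched start site (Mmp15, Adamts9, Adamtsl4 and Timp3) held a GC box match and 0 held an AP-1, TATA or TEAD match. This is not particular to them. Of the 27 matched members outside the cluster, which include these 4, 21 held a GC box, 0 an AP-1, 3 a TATA and 2 a TEAD match. The lower members Adamts5, Adamts16, Lox and Loxl2 had no matched start site.

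Of the 19 ADAMTS genes 18 were tested, with 3 called lower and 0 higher. The family includes proteases of the proteoglycans aggrecan and versican, the procollagen N-proteinases, and enzymes of microfibrils. Among the proteoglycan-cleaving members, Adamts9 (ENSMUSG00000030022, chromosome 6, 92772699 to 92943492, minus strand) was at 70.1 and 76.8 CPM in frontal and 106 and 108 CPM in parietal-interparietal libraries. It was 1.46-fold lower in frontal libraries, at 73.5 ± 4.79 against 107 ± 1.87 CPM (mean ± SD, n = 2 per group), with a log2 fold change of −0.54 ± 0.09 SE (edgeR adjusted p = 0.00331). Adamts5 (ENSMUSG00000022894, chromosome 16, 85856173 to 85901828, minus strand), the main aggrecanase of mouse cartilage, was at 21.3 and 20.4 CPM against 28.9 and 29.1 CPM. The frontal libraries were again both lower, by 1.39-fold on average (20.9 ± 0.699 against 29.0 ± 0.102 CPM; log2 fold change −0.48 ± 0.11, adjusted p = 0.0203).

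Adamts1, which lies 53.1 kb from Adamts5 on the same strand and also cuts versican and aggrecan, overlapped between the groups. It was at 62.9 and 61.0 CPM against 67.1 and 62.8 CPM, with an interval of the log2 difference from −0.27 to 0.13 (edgeR adjusted p = 0.686). The ratio of Adamts5 to Adamts1 within a library, which does not depend on library scaling, was 0.340 and 0.334 in frontal and 0.431 and 0.463 in parietal-interparietal libraries. The proteoglycanases Adamts4, Adamts8, Adamts15 and Adamts20 were not called, with log2 fold changes from −0.17 to 0.15. Adamts15 and Adamts8 lie 20.1 kb apart on chromosome 9.

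Adamts16 (ENSMUSG00000049538, chromosome 13, 70727802 to 70841811, minus strand) was at 7.20 and 11.2 CPM in frontal and 16.8 and 17.2 CPM in parietal-interparietal libraries. It had the second lowest log2 fold change among the called members, and its frontal libraries were both lower but far apart from each other. The means were 9.21 ± 2.84 and 17.0 ± 0.303 CPM, a 1.84-fold difference (log2 fold change −0.88 ± 0.20, edgeR adjusted p = 0.016). Without frontal library 1 the log2 fold change was −0.60, and without frontal library 2 it was −1.25. Adamts18, its closest relative in the family, was at 10.6 and 9.43 CPM against 8.02 and 8.62 CPM, and was not called (adjusted p = 0.359).

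The procollagen N-proteinases, which trim the amino end of fibrillar procollagens, were not called. Adamts2 was at 50.6 and 38.1 CPM in frontal and 56.6 and 56.6 CPM in parietal-interparietal libraries (edgeR adjusted p = 0.103), and passed the test as lower with frontal library 1 left out, the frontal pair summed or no filter. Adamts3 was at 7.27 and 6.28 CPM against 4.62 and 4.94 CPM (adjusted p = 0.164), and it passed the test as higher when frontal library 2 was left out. Their groups did not overlap and lay in opposite directions, a difference between these genes that was not tested. Adamts14 overlapped, at 12.9 and 6.53 CPM against 9.90 and 12.3 CPM.

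Of the members linked to fibrillin microfibrils, Adamts10 was at 97.0 and 86.1 CPM against 95.6 and 95.6 CPM (edgeR adjusted p = 0.711). Adamts6 and Adamts17, with log2 fold changes of 0.01 and −0.14, were not called either. Adamts12, which cuts the cartilage protein COMP, was at 69.4 and 63.4 CPM against 80.7 and 80.0 CPM. The groups did not overlap, and the 1.21-fold difference missed the threshold (adjusted p = 0.0735); it was called lower without either frontal library, with the frontal pair summed and with no scaling beyond the total count. Adamts7, its close relative, had a log2 fold change of −0.08, and Adamts19, at 8.03 and 8.26 against 6.42 and 6.71 CPM, one of 0.31; neither was called.

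Of the 5 ADAMTS-like genes, all tested, 1 was called lower and 0 higher. Adamtsl4, whose product binds fibrillin-1 and whose loss in humans displaces the lens, is at ENSMUSG00000015850 (chromosome 3, 95676201 to 95687917, minus strand). It was at 3.82 and 3.66 CPM in frontal and 7.94 and 6.04 CPM in parietal-interparietal libraries. The frontal mean was 1.86-fold lower (3.74 ± 0.114 against 6.99 ± 1.34 CPM; log2 fold change −0.90 ± 0.24, edgeR adjusted p = 0.032), the lowest log2 fold change of the called members. Adamtsl5, another fibrillin-binding member, was at 5.01 and 3.29 CPM against 7.32 and 6.23 CPM (log2 fold change −0.71 ± 0.26, adjusted p = 0.102), and Adamtsl1 at 41.8 and 37.1 CPM against 47.9 and 49.8 CPM (−0.31 ± 0.10, adjusted p = 0.0758). In both the frontal libraries were the lower ones without passing the test. Both were called lower without frontal library 1 and with the frontal pair summed, Adamtsl1 also without frontal library 2 and when libraries were scaled by total count alone, and Adamtsl5 also with no filter. The log2 fold change of Adamtsl5 was −1.04 without frontal library 1 and −0.44 without frontal library 2. Adamtsl2 and Adamtsl3 overlapped between the groups, at 4.49 to 6.99 CPM.

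Of the 4 TIMP genes, all tested, 1 was called lower and 0 higher. Timp1, Timp3 and Timp4 lie inside the synapsin genes Syn1, Syn3 and Syn2 on the opposite strand, while Timp2 does not lie in one. Timp2 was at 272 and 260 CPM in frontal and 264 and 268 CPM in parietal-interparietal libraries, which overlapped. It was the most abundant inhibitor, and the 95% interval of its log2 difference ran from −0.16 to 0.16 (edgeR adjusted p = 0.999). Timp1, a secreted inhibitor, was at 20.4 and 15.8 CPM against 21.4 and 21.2 CPM (adjusted p = 0.339), with an interval from −0.56 to 0.09. Its log2 fold change was −0.43 without frontal library 1, where it was called lower (edgeR adjusted p = 0.00794), and −0.07 without frontal library 2. Timp4 was low, at 0.974 to 1.64 CPM, and overlapped (adjusted p = 0.852).

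Timp3 (ENSMUSG00000020044, chromosome 10, 86300372 to 86349506, plus strand), the inhibitor that stays bound to the matrix and also blocks ADAMTS proteases, was the called TIMP. It was at 53.1 and 50.1 CPM in frontal and 73.4 and 76.9 CPM in parietal-interparietal libraries. The difference was 1.46-fold (51.6 ± 2.13 against 75.1 ± 2.45 CPM), with a log2 fold change of −0.54 ± 0.09 (edgeR adjusted p = 0.00404). Within a library Timp2 stood at 5.12 and 5.19 times Timp3 in the frontal and at 3.60 and 3.49 times in the parietal-interparietal libraries.

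Of the 5 lysyl oxidases 2 were called lower and 0 higher. The summed level of the family was 201 and 224 CPM in frontal and 281 and 280 CPM in parietal-interparietal libraries. This sum includes the 2 called genes and is no separate result. The ADAMTS, ADAMTSL and TIMP sums were also lower in both frontal libraries, while the MMP sums overlapped at 524 and 475 against 505 and 519 CPM. Each of these sums includes called genes too and is no separate result. In the TIMP sum Timp2, its largest part, overlapped between the groups, and Timp3 was the called member. Loxl2, which crosslinks collagen IV among other substrates (ENSMUSG00000034205, chromosome 14, 69609068 to 69695834, plus strand), was at 86.1 and 87.5 CPM against 119 and 127 CPM. The frontal mean was 1.42-fold lower (86.8 ± 1.06 against 123 ± 5.21 CPM; log2 fold change −0.50 ± 0.08, edgeR adjusted p = 0.00372), with both frontal libraries close together. Lox, the main crosslinker of fibrillar collagen and elastin (ENSMUSG00000024529, chromosome 18, 52516067 to 52529867, minus strand), was at 68.7 and 90.8 CPM against 107 and 110 CPM. Its frontal libraries were both lower but differed from each other more than those of Loxl2 (79.8 ± 15.6 against 108 ± 2.0 CPM, 1.36-fold; log2 fold change −0.44 ± 0.12, adjusted p = 0.0387). The log2 fold change of Lox was −0.25 without frontal library 1 and −0.66 without frontal library 2, and it was called in both fits.

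The other lysyl oxidases were not called. Loxl1, which acts on elastic fibres, was at 30.8 and 31.1 CPM in frontal and 37.8 and 30.7 CPM in parietal-interparietal libraries (edgeR adjusted p = 0.493), so 1 parietal-interparietal library lay above and the other just below the frontal ones. Loxl3, needed for palate and spine formation, overlapped at 11.5 to 15.8 CPM (adjusted p = 0.902). Loxl4 was at 0.904 and 1.45 CPM against 1.72 and 1.77 CPM (adjusted p = 0.463). The ratio of Loxl2 to Loxl1 within a library was 2.79 and 2.82 in frontal and 3.16 and 4.13 in parietal-interparietal libraries.

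**Figure D3:**
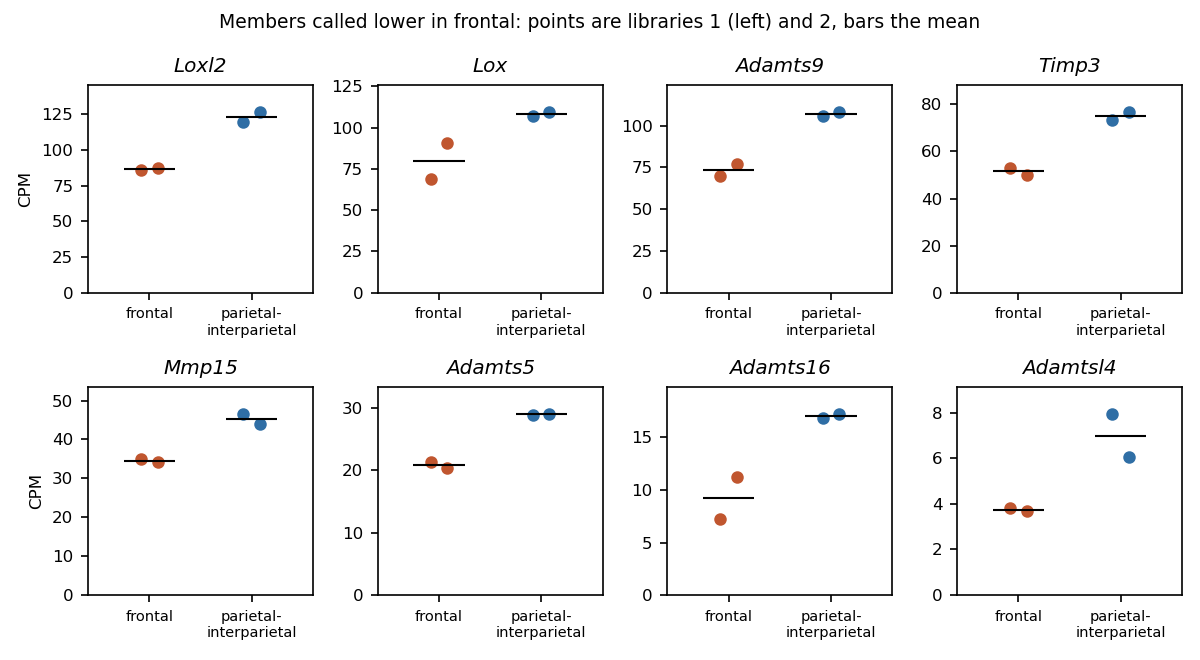
CPM in each library for the 8 called members, with axes from 0, points for libraries 1 (left) and 2 (right) of each group and a bar at the mean. In each panel both frontal points lie below both parietal-interparietal points; Lox and Adamts16 have the widest frontal spread, at SDs of 15.6 and 2.84 CPM, relative to their means of 79.8 and 9.21 CPM.

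Some members share exon bases with a gene on the opposite strand, and the strand setting of the counting is not given in the sources used here. For Timp3 these are 1733 bases of Syn3, for Adamts9 they are 1381 bases of A730049H05Rik and 424 of Gm15737, for Loxl2 they are 301 bases of Gm27177, and for Lox 30 bases of AC161119.1. Counts of these partner genes were low beside those of the members: 73 to 178 for Syn3 against 1528 to 2086 for Timp3, and at most 43, 52, 49 and 19 for A730049H05Rik, Gm15737, Gm27177 and AC161119.1. None of these 5 partners was called. Mmp15, Adamts5, Adamts16 and Adamtsl4 share no exon base with another gene on the opposite strand.

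**Figure D4:**
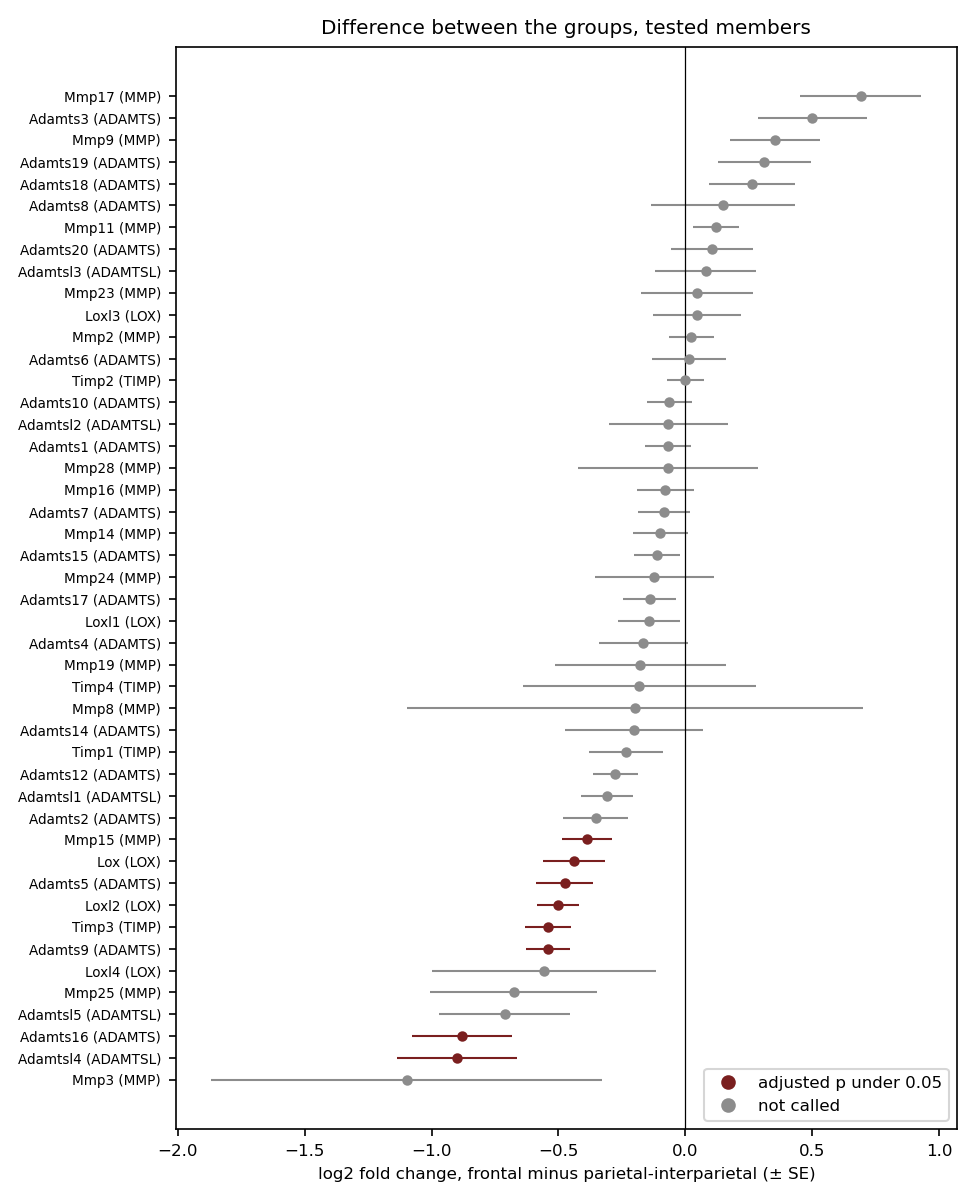
Log2 fold change, frontal minus parietal-interparietal, with its standard error for the 46 tested members in order. The 8 called members (dark) lie between −0.90 and −0.39, and members with few counts, such as Mmp3 at −1.10 and Mmp8 at −0.20, have the widest bars.

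The genes that work with these families were taken from 7 lists with 102 distinct genes outside the module, of which 97 were tested. Of these, 23 were called lower in frontal (23.7%, against 6.44% of all tested genes). A further 6 were higher (6.19%, against 6.25%) and 68 were not called. At an unadjusted p under 0.05, 38 were lower and 10 higher, against 2796 and 2872 of all 20947 tested genes. Of 17 substrates of these proteases, 10 were lower (Col1a1, Col1a2, Col2a1, Col3a1, Col4a1, Col4a2, Col5a1, Acan, Bgn and Fn1) and 3 higher. Col1a1, the main collagen chain of bone, was at 981 ± 19.5 against 1496 ± 9.02 CPM, and Acan, which encodes aggrecan, the target of ADAMTS5, was at 11.5 ± 2.14 against 20.4 ± 0.440 CPM (log2 fold change −0.82 ± 0.15, edgeR adjusted p = 0.00735). The 3 higher substrates were matrix genes of brain, Reln (2.51-fold), Bcan (13.1-fold) and Ncan (2.0-fold), while Vcan, which encodes versican, was not called at 600 ± 28.4 against 572 ± 8.49 CPM (n = 2 each, adjusted p = 0.586).

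Of 16 elastic fibre and microfibril genes, 4 were lower (Efemp1, Fbn1, Fbn2 and Fbln2) and 1 higher (Mfap2). Efemp1, which encodes fibulin-3, was 1.53-fold lower, and Fbn1, which encodes the fibrillin-1 that ADAMTSL4 binds, was 1.26-fold lower at 267 ± 6.77 against 337 ± 3.29 CPM (edgeR adjusted p = 0.0135). Fbn2, the fibrillin of embryonic tissue, was also 1.26-fold lower. Of 19 collagen maturation enzymes 4 were lower and 0 higher. They were Tgm2, Pcolce, P4ha3 and Plod2. Tgm2, which encodes a transglutaminase that crosslinks glutamine to lysine, was 1.53-fold lower and Pcolce, an enhancer of procollagen C-proteinase, 1.31-fold lower; P4ha3, a subunit of collagen prolyl 4-hydroxylase, was 1.38-fold lower.

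Of the 4 lists of other proteases and their regulators, each held at least 1 called gene, while 12.7% of all tested genes were called in either direction. In the order below, 8.33%, 10%, 20% and 7.69% of the tested genes were lower, against 6.44% of all tested genes. Higher were 0%, 10%, 10% and 0%, against 6.25%. Lists this short can hold a call or more at the share of all genes, so these calls are no result about the lists. Of 12 tested metalloproteases outside the module, Adam19 was called, 1.45-fold lower at 43.3 ± 4.35 against 62.6 ± 1.48 CPM (edgeR adjusted p = 0.00778), and Bmp1, the procollagen C-proteinase, was not (adjusted p = 0.496). Of 10 tested genes of the plasminogen system and serpins, Serpine2, a serpin inhibitor of plasminogen activators and thrombin, was 1.40-fold lower and the serine protease gene Htra1 1.26-fold higher. Of 10 cathepsins and cystatins, Cstb and Ctsk were lower (1.62-fold and 1.34-fold) and Cst3, which encodes cystatin C, 1.42-fold higher. Of 13 activators and surface regulators, Thbs2, which encodes a thrombospondin that clears MMP2, was 1.29-fold lower, and Furin and Reck were not called.

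Markers of several other cell types moved in the same direction as the 8 lower members. Beside the meningeal and muscle markers above, 4 of 11 cartilage markers (summed level 557 to 580 CPM in frontal and 714 to 734 CPM in parietal-interparietal libraries), 8 of 8 sensory ganglion markers (93.0 to 101 against 232 to 240 CPM) and 3 of 8 Schwann cell markers (148 to 168 against 219 to 225 CPM) were called lower, with 0 higher in each. So were 5 of 7 erythroid markers (7357 to 8992 against 10828 to 10888 CPM) and 5 of 10 midbrain and hindbrain markers (53.0 to 68.4 against 124 to 135 CPM), again with 0 higher. Over all tested genes 6.44% were called lower and 6.25% higher. Of 9 endothelial markers 1 was lower and 1 higher (486 to 531 against 582 to 593 CPM). Of 8 pericyte and smooth muscle markers 1 was lower (299 to 318 against 338 to 343 CPM). The calls of these 2 short lists thus gave no direction. Of 8 pan-neuronal markers 2 were lower and 2 higher (770 to 781 against 754 to 755 CPM). The osteoblast list ran the other way from the 8 lower members, with 7 of 10 markers above 0 and a median log2 fold change of 0.46. At an unadjusted p under 0.05, 5 of these 10 were higher and 2 lower (edgeR). After adjustment Ibsp, which encodes bone sialoprotein, was among those called higher and Col1a1 was called lower. The summed level of the list, in which Col1a1 is the largest part, was 1132 to 1141 CPM in frontal and 1587 to 1594 CPM in parietal-interparietal libraries. No marker of these lists was at 0 in all 4 libraries. Among brain markers, the called ones of forebrain were thus higher in frontal and the called ones of midbrain and hindbrain lower. The part of these cell types in the differences of the brain matrix genes and of Lox, Loxl2, Timp3, Mmp15 and the ADAMTS and ADAMTSL genes was not tested.

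**Figure D5:**
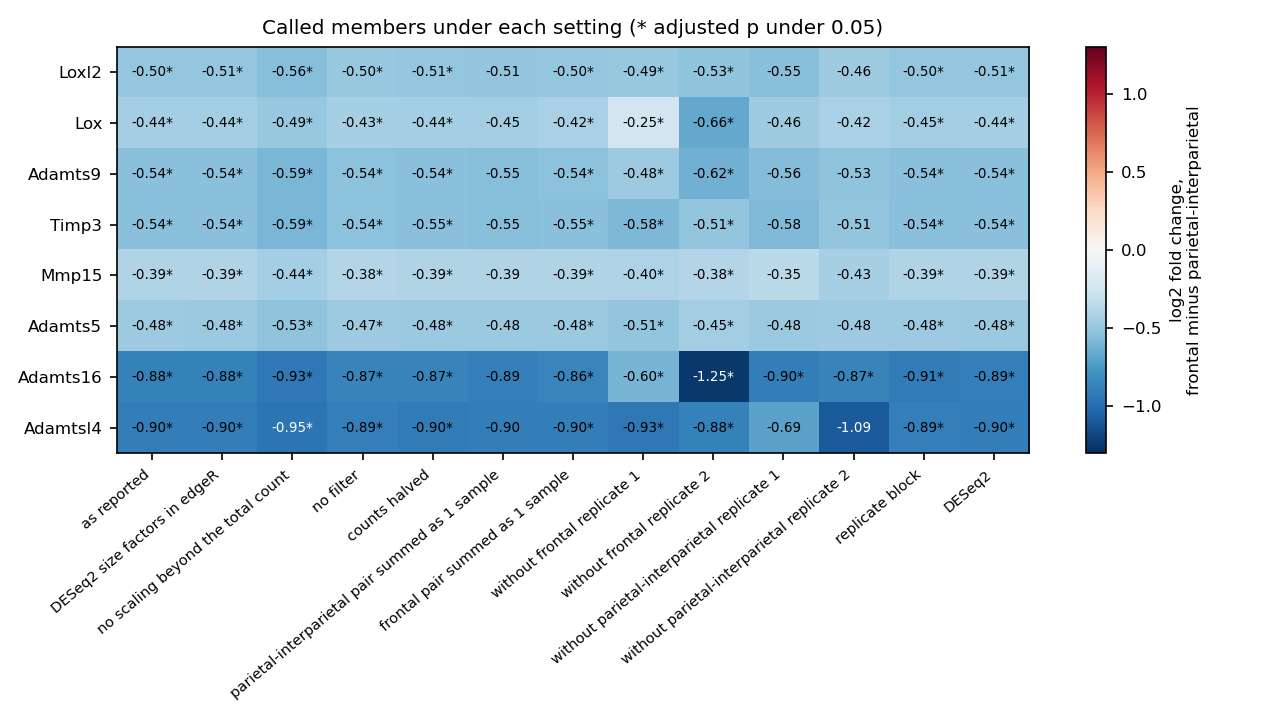
Log2 fold change, frontal minus parietal-interparietal, of the 8 called members (rows) as reported and under the 12 alternatives (columns), with an asterisk where the adjusted p is under 0.05. All values are negative, from −1.25 to −0.25, and the asterisks are missing where the parietal-interparietal libraries were summed and, except for Adamts16, where 1 of them was left out.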

How the data were processed

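The authors deposited raw whole-number counts per Ensembl gene. Tools named in the submitters' processing notes are featureCounts 2.0.1, HISAT2 2.1.0 and Trim Galore 0.6.7, with the build GRCm38. The sources used here do not state the settings, annotation release, strand or multi-mapping rules. Even numbers made up 68.3 to 74.4% of counts from 1 to 20, so counts were also analysed halved. Symbols, positions and exon lengths came from GENCODE M21 (GRCm38), which matched 55227 of 55487 IDs. Mmp1a is a polymorphic pseudogene in that release and is outside the rule.

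Genes were filtered with filterByExpr (minimum count 10), TMM-scaled and tested in edgeR 4.0.16 (R 4.3.3) by its two-sided quasi-likelihood test, on a design with no term but group (2 residual degrees of freedom), with Benjamini-Hochberg adjustment over all 20947 genes tested. An adjusted p under 0.05 was called. The standard error of a log2 fold change was derived from its size and its F statistic. Intervals use the total degrees of freedom of the test, which add those that edgeR borrows across genes to the 2 residual ones. They are therefore narrower than intervals on the 2 residual degrees of freedom alone. DESeq2 1.42.0 was an alternative. The procedure was tested on simulated data. The floor of 3 counts covers counting error only.

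Values are given for called members, for the 3 members of each family highest per exon length, and for Mmp2, Mmp9, Mmp13, Mmp14, the TIMPs and the lysyl oxidases. Other members named with values (among them Mmp3, Mmp17, Mmp25, Adamts2, Adamts3, Adamts14, Adamts18 and Adamts19), and the within-library ratios, were chosen after their values were seen. Of each linked list the 3 called genes with the smallest p are given with values; Col1a1, Acan and uncalled genes were chosen after their values were seen. The members and lists were chosen with earlier results of these data known. The result of 1 marker gene is not reported here. Figures were drawn with matplotlib 3.10.9.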

Additional observations from a re-analysis of the deposited data

How the results depend on the processing

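The 12 alternatives changed the scaling, tool, filter, counting, replicates or pairing. The share of all genes called changed with them. It rose with the frontal pair summed and fell with the parietal-interparietal pair summed. The count of lower members did the same, so those changes are not particular to the members. The 8 lower members stayed at 8 with DESeq2 size factors, DESeq2 and halved counts, where 6.56%, 6.34% and 7.87% of all tested genes were lower. The lower members were 10 with no filter and with no scaling beyond the total count, where 5.34% and 7.67% of all tested genes were lower. As reported this share was 6.44%, so with no filter the count of members rose while the share of all genes fell. With the parietal-interparietal pair summed, 0 members were lower, and 3 linked genes were higher and 5 lower. With the frontal pair summed, 1 member was higher and 12 lower, and 14 linked genes were higher and 37 lower. With 1 library left out, where the lone library of a group is assumed to vary like the other group, 0 to 3 members were higher and 1 to 16 lower, and 3 to 17 linked genes were higher and 6 to 37 lower. The replicate numbers did not pair the samples (correlation of deviations 0.0179). With a replicate block 10 members were lower, the 8 with Adamts2 and Adamtsl5, while 8.13% of all tested genes were lower. Timp2 stood at −7.5e-05 in that fit.

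Differences that changed sign were all among members not called. With no scaling beyond the total count Mmp2 was at −0.029, Timp2 at −0.052 and Loxl3 at −0.0066 log2 units. Timp2 was also at −0.0019 with DESeq2 size factors, −0.0022 with halved counts, −0.0078 and −0.0024 with the parietal-interparietal and the frontal pair summed, and −0.0020 in DESeq2. With 1 library left out, ranges were −0.079 to 0.11 for Mmp2, −0.28 to 0.055 for Mmp14, −0.15 to 0.011 for Adamts10, −0.031 to 0.023 for Timp2, −0.59 to 0.12 for Timp4, −0.29 to 0.011 for Loxl1 and −0.17 to 0.29 for Loxl3. Depth limits the MMP cluster of chromosome 9, where counts were at most 23.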
